A study of Homo sapiens with 6 samples.

Results

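The genes of prostaglandin synthesis, signalling and breakdown were followed in U87-MG cells, a human glioblastoma cell line, after knockdown of CHRM3, the M3 muscarinic acetylcholine receptor. The group was a fixed list of 10 of the 61731 genes in the expression table, taken by symbol: the phospholipase PLA2G4A, the cyclooxygenases PTGS1 and PTGS2, the prostaglandin E2 (PGE2) synthases PTGES, PTGES2 and PTGES3, the prostacyclin synthase PTGIS, the PGE2 receptors PTGER2 and PTGER4 and the degrading enzyme HPGD. No expression value entered the choice of the list, but it was drawn up with earlier results of these data known. Of the 10 genes, 7 had a mean of at least 1 TPM (transcripts per 1000000, corrected for length) over the 6 libraries and were tested beside 13722 genes in all, while PTGS1, PTGIS and HPGD lay under that limit.

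RNA sequencing covered 3 libraries of cells that had received a CHRM3 knockdown (KD) and 3 of cells labelled as normal control (NC). The paper's figure legends give NC as negative control. All 6 libraries came from the U87 line, and the comparison asks which transcripts change in amount when CHRM3 is lowered. The study delivered its knockdowns by lentivirus and lists 3 knockdown sequences, and which of these the sequenced cells carried is not given in the sources used here. The paper reports from separate measurements that CHRM3 was lowered in U87-MG cells, and it names the most efficient of these sequences. The labels do not say whether replicates were grown as separate cultures, so p-values measure only the spread between these libraries, which may be technical.

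Prostaglandins are lipid messengers made from arachidonic acid. A cytosolic phospholipase A2 frees the acid from membrane lipids, a cyclooxygenase turns it into the unstable intermediate PGH2, and a terminal synthase converts PGH2 into PGE2, prostacyclin or another prostanoid. PGE2 acts on the EP receptors, of which EP2 and EP4 raise cyclic AMP, and 15-hydroxyprostaglandin dehydrogenase starts its breakdown. In gliomas, as in other tumours, the inducible enzymes of this route are known for their link to inflammation, growth and invasion.

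CHRM3 itself read 0.02, 0.09 and 0.13 TPM in the NC libraries and 0.13, 0.01 and 0.02 TPM in the KD libraries, so its level was near 0 everywhere and could not check the labels (0.08 ± 0.0557 against 0.0533 ± 0.0666 TPM, SD, n = 3 each, exact permutation test, two-sided p = 0.8). Between 13518 and 13664 genes reached 1 TPM in a library, and read depth is unknown because only TPM were used. Mitochondrial transcripts made up 5.32 to 5.47% of TPM in NC and 4.41 to 4.87% in KD, and with these transcripts taken out 4 of the prostaglandin genes passed the test described below, as with them. Of 10 glioma and glial markers 4 reached a mean of 1 TPM, led by the intermediate filament gene VIM at up to 7451 TPM, and AQP4 was at 0. Of 10 leukocyte markers only CD68, a lysosomal gene of macrophages, reached 1 TPM, with the list's sum at 249.4 to 254.2 TPM in NC and 170.9 to 177.7 in KD, and TYROBP and CD3E were at 0. Mast cell, endothelial and oligodendrocyte markers, from cell types that also use this pathway, stayed under 1 TPM.

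The terminal PGE2 synthase PTGES showed the largest log2 fold change of the 7 tested genes, and it fell in KD to 32.9% of its NC level. PLA2G4A and PTGS2, which act before it, fell to 67.0% and 66.6%, and PTGES3 fell to 89.4%. The receptor genes PTGER2 and PTGER4 and the synthase gene PTGES2 did not pass the test. With limma on log2(TPM + 1) and a Benjamini-Hochberg adjusted p under 0.05, 4 of the 7 tested genes were lower and 0 were higher in KD. Among all 13722 tested genes 24.0% were lower and 12.1% higher by the same rule, so changes of this kind were common in these cells. With the added demand of a log2 change of 1 or more in size, PTGES alone of the 7 was called, beside 1.87% of all tested genes in either direction and 1.20% lower in KD. The median log2 fold change was -0.17 over the 7 genes and -0.06 over all tested genes.

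To show what stands upstream of the 3 largest falls on the log2 scale, the promoters of PTGES, PTGS2 and PLA2G4A are printed here from RefSeq (GRCh38.p14), each from 250 bases before to 50 bases after the annotated start, 5′ to 3′ on the strand of the gene. Capitals mark matches, on either strand, to the motifs searched. These were the SP1 box GGGCGG, the TATA box TATAAA, the CCAAT box, the E-box CACGTG and the AP-1 site TGANTCA. Searched as well were the cyclic AMP response element (CRE) TGACGTC, its shorter core TGACG and the NF-kB motif GGGRNWYYCC. In these patterns N is any base, R is A or G, W is A or T and Y is C or T. A full CRE also holds the core.
PTGES, chr9:129752993-129753292, minus strand: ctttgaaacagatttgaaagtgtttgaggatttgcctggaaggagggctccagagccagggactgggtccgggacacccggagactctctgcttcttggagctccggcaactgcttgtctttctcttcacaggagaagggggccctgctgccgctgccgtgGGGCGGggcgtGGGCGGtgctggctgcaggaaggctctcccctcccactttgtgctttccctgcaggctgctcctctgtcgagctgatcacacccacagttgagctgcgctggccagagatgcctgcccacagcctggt
PTGS2, chr1:186680374-186680673, minus strand: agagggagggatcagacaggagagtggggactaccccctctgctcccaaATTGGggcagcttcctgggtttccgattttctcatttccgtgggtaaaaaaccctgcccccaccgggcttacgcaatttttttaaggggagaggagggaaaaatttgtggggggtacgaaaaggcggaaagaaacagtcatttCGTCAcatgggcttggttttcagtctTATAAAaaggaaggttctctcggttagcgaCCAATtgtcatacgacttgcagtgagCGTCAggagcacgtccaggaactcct
PLA2G4A, chr1:186828699-186828998, plus strand: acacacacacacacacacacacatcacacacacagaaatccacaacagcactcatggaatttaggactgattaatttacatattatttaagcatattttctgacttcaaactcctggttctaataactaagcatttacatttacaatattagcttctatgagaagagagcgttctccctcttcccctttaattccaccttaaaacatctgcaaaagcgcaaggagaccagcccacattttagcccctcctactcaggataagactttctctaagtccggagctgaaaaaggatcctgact

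The 3 windows shared none of these motifs. The PTGES window held 2 SP1 boxes, at bases -89 to -84 and -78 to -73 counted from the start, and no TATA box. In the PTGS2 window lay a TATA box at -32 to -27, CCAAT boxes at -201 to -197 and at -2 to 3, and the CRE core at -58 to -54 and at 25 to 29. No motif matched in the PLA2G4A window, which had a GC content of 39.7%, against 50.7% for PTGS2, 61.7% for PTGES and a median of 58.7% over all promoters. PTGES3, whose promoter was searched but is not printed, had 4 SP1 boxes and 1 CRE core. Over the 35116 RefSeq promoters of this length, 45% held an SP1 box, 34.6% a CCAAT box, 24.6% the CRE core, 11.5% a TATA box, 7.71% an AP-1 site, 7.26% an E-box, 5.91% the NF-kB motif and 3.45% the CRE. Promoters were found for 9 of the 10 genes, as 13 entries because some genes have several starts, and PTGIS was not matched. A match is a run of letters and not a measured site. A stretch that misses a pattern by a letter was not counted, such as gggactaccc in the PTGS2 window against the NF-kB pattern. The lack of a match therefore does not show that a window has no site.

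**Figure D1:**
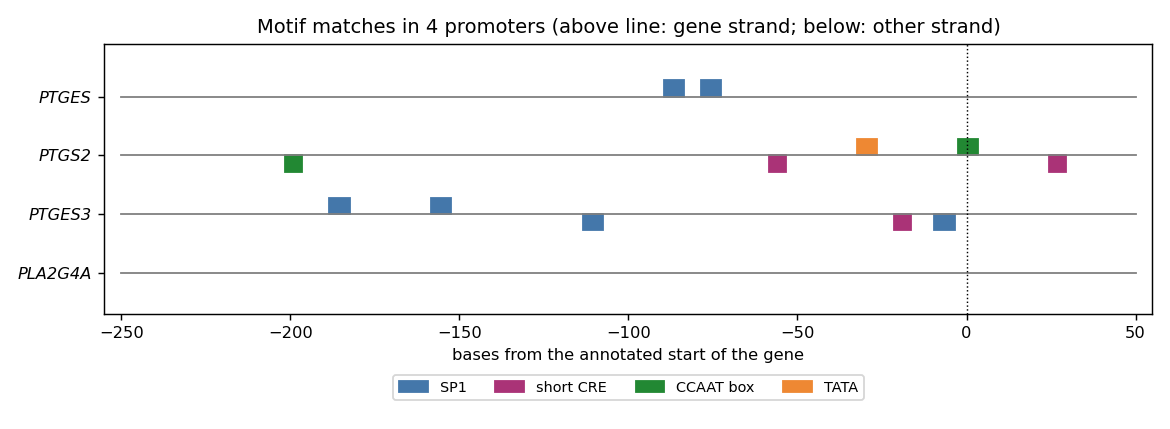
Motif matches along the promoters of PTGES, PTGS2, PTGES3 and PLA2G4A, with position in bases from the annotated start on the horizontal axis and each coloured block 1 match, above the line for the gene's strand and below it for the other strand (short CRE is the core motif). The 2 blocks of PTGES are SP1 boxes, PTGS2 carries 5 blocks of 3 kinds, and the line of PLA2G4A is empty.

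PLA2G4A (ENSG00000116711, chromosome 1, 186828953 to 186988981, plus strand) encodes the cytosolic phospholipase A2 that frees arachidonic acid. Its TPM were 4.92, 4.19 and 4.78 in NC and 3.49, 2.94 and 2.87 in KD. Every KD library lay below every NC library. The means were 4.63 ± 0.387 and 3.10 ± 0.340 TPM (SD, n = 3 each), and the log2 fold change of TPM + 1 was -0.46 with a 95% interval from -0.69 to -0.22 (SE 0.0977, limma adjusted p = 0.0124). All 16 alternative analyses that tested the gene gave an adjusted p under 0.05, with the highest at 0.0473.

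PTGS2 (ENSG00000073756, chromosome 1, 186671791 to 186680427, minus strand) encodes COX-2, the inducible cyclooxygenase. The NC libraries read 3.52, 3.14 and 2.95 TPM and the KD libraries 2.16, 2.06 and 2.18 TPM. The groups did not overlap, and the KD values were the closer together. The gene went from 3.20 ± 0.290 to 2.13 ± 0.0643 TPM, a log2 fold change of -0.42 with a 95% interval from -0.65 to -0.20 (SE 0.0936, limma adjusted p = 0.0144). It no longer passed without NC replicate 1, the highest library (-0.37, adjusted p = 0.0536), and with no limit on low values (adjusted p = 0.0562). PTGS2 and PLA2G4A are read away from each other on chromosome 1, with 148526 bases between their starts. PACERR, a long noncoding RNA gene just before the PTGS2 start on the other strand, reached at most 0.15 TPM.

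PTGS1 (ENSG00000095303, chromosome 9, 122370530 to 122395703, plus strand) encodes COX-1, the cyclooxygenase that many tissues keep switched on. It read 0.01, 0.09 and 0.03 TPM in NC and 0.03, 0.09 and 0.00 TPM in KD, so PTGS2 supplied 98.6% ± 1.29 of the summed cyclooxygenase TPM in NC and 98.1% ± 2.13 in KD. The sum of both went from 3.25 ± 0.275 to 2.17 ± 0.0208 TPM. At these levels no change of PTGS1 was detectable (exact permutation test, two-sided p = 1).

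The PTGS2 messenger is known for AU-rich elements that shorten its life, and its first 30 untranslated bases after the stop codon (chr1:186674323-186674352, minus strand, GENCODE release 29) are printed because they hold 3 overlapping ATTTA pentamers, in capitals.
PTGS2 3′ untranslated start: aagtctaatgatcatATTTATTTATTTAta
In its longest annotated 3′ untranslated region, of 2562 bases, PTGS2 had 22 ATTTA pentamers or 8.59 per kilobase, and 1.59% of 18248 genes had at least that density. PLA2G4A was similarly dense, with 4 in 473 bases or 8.46 per kilobase, followed by PTGER4 with 6.63 and PTGES3 with 5.28 per kilobase. PTGES had 1 pentamer in 1280 bases, or 0.781 per kilobase, below the median of 1.58 per kilobase over all genes, and PTGES2 had 0 in 452 bases. By count, 2.33% of genes had as many as PTGS2 or more, but 35.6% had as many as PLA2G4A, whose untranslated region is short.

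**Figure D2:**
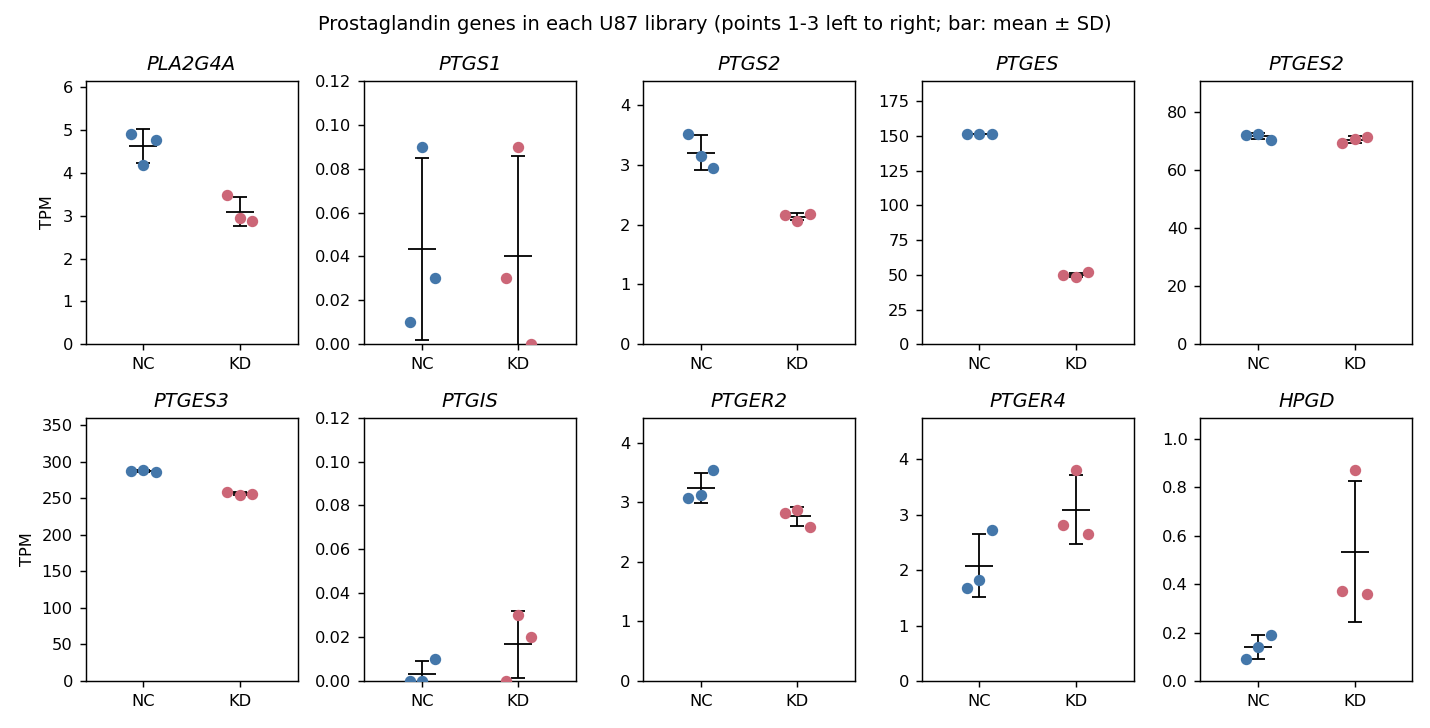
TPM of each of the 10 prostaglandin genes in the 3 NC and 3 KD libraries, 1 panel a gene with its own linear axis from 0, with points for replicates 1 to 3 from left to right and bars for the mean ± SD. PTGES sits at 151.3 to 151.7 TPM in NC and 48.3 to 51.7 TPM in KD, while PTGES2 overlaps between the groups and PTGS1 and PTGIS stay near 0.

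PTGES (ENSG00000148344, chromosome 9, 129738331 to 129753047, minus strand) encodes microsomal PGE2 synthase 1, the inducible terminal enzyme that works with COX-2. Its TPM were 151.70, 151.28 and 151.46 in NC and 49.74, 48.25 and 51.68 in KD. The libraries of each group lay close together and the gap between the groups was many times their spread. The means of 151.5 ± 0.211 and 49.9 ± 1.72 TPM (SD, n = 3 each) differed 3.04-fold, with a log2 fold change of -1.58 and a 95% interval from -1.66 to -1.51 (SE 0.0306, limma adjusted p = 1.00e-06). Ordered by log2 fold change, PTGES was number 65 of the 164 genes called lower. The fall kept its size under all 17 alternatives, between -1.61 and -1.51 on the log2 scale.

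PTGES2 (ENSG00000148334, chromosome 9, 128120693 to 128128462, minus strand) encodes the membrane-associated PGE2 synthase 2. It read 72.23, 72.67 and 70.62 TPM in NC and 69.31, 70.89 and 71.64 TPM in KD, and the groups overlapped. The log2 fold change was -0.02 with a 95% interval from -0.09 to 0.04 (limma adjusted p = 0.518), and its sign turned when the libraries were scaled by median-of-ratios factors or by quantiles (0.04 and 0.03). PTGES2-AS1, a noncoding gene just before its start on the other strand, reached at most 0.28 TPM.

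PTGES3 (ENSG00000110958, chromosome 12, 56663341 to 56688408, minus strand) encodes cytosolic PGE2 synthase, which is also the HSP90 cochaperone p23. It was the most abundant of the 10 genes, at 286.96, 288.04 and 285.59 TPM in NC and 259.09, 254.64 and 255.56 TPM in KD. All KD libraries were below all NC libraries, by a small step. The log2 fold change was -0.16 with a standard error of 0.0170 (limma adjusted p = 0.00073), and it passed under all 17 alternatives, where it ran from -0.17 to -0.08 (highest adjusted p = 0.0174). PTGES3 has processed pseudogenes that could take or give reads, of which PTGES3P1 reached 0.87 TPM and the others at most 0.39 TPM.

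Summed over the 3 PGE2 synthases, the level went from 510.2 ± 2.25 TPM in NC to 376.9 ± 2.76 TPM in KD, a fall of 133.3 TPM to 73.9% of NC. PTGES accounted for 76.2% of that fall in TPM and PTGES3 for 22.8%. The size of the fall and these parts hold for TPM as deposited and depend on library scaling. With median-of-ratios scaling the log2 fold changes were -1.51 for PTGES, -0.09 for PTGES3 and 0.04 for PTGES2. The share of PTGES in the sum went from 29.7% ± 0.143 to 13.2% ± 0.372, that of PTGES2 from 14.1% ± 0.150 to 18.7% ± 0.352, and that of PTGES3 from 56.2% ± 0.0510 to 68.0% ± 0.539 (SD, n = 3 each). The groups did not overlap in any of these shares. With 3 libraries a side the smallest two-sided p of an exact permutation test is 0.10, so the shares are given without a test. PTGES stood above PTGES2 in every NC library, at 2.11 ± 0.0324 times its TPM, and below it in every KD library, at 0.707 ± 0.0225 times. The ratio of PTGES3 to PTGES2 moved less, from 3.99 ± 0.0440 to 3.63 ± 0.0923. The ratio of PTGES to PTGS2, the inducible pair, went from 47.5 ± 4.16 to 23.4 ± 0.341.

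**Figure D3:**
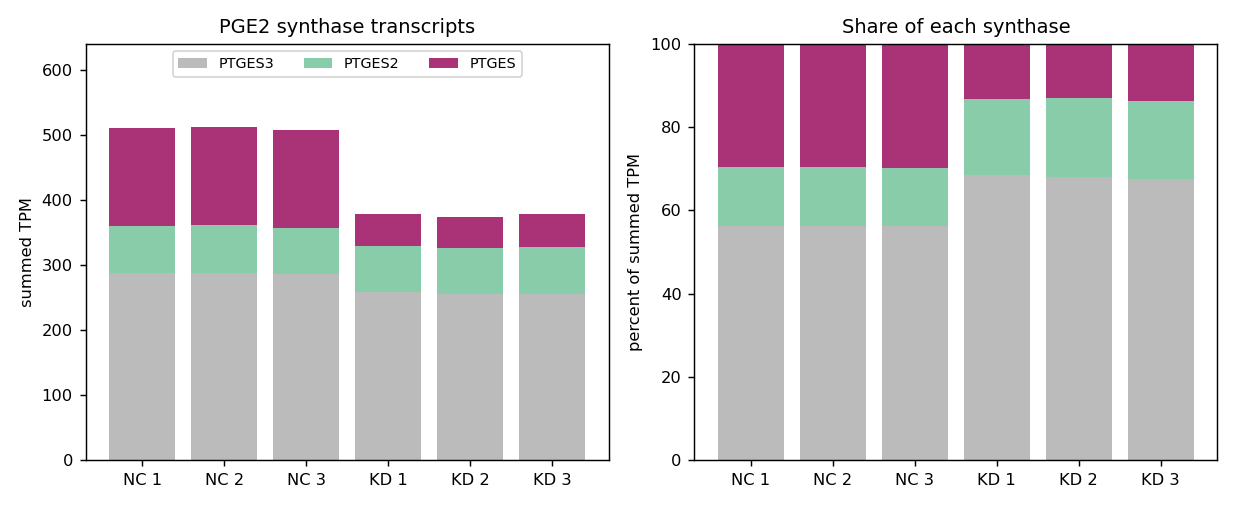
Stacked TPM (left) and percent of summed TPM (right) of PTGES, PTGES2 and PTGES3 in each NC and KD library. The summed bars stand at 507.7 to 512.0 TPM in NC and 373.8 to 378.9 TPM in KD, and the PTGES segment shrinks from about 29.7% to 13.2% of the bar.

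PTGIS (ENSG00000124212, chromosome 20, 49503874 to 49568146, minus strand) encodes prostacyclin synthase. It was listed at 0, 0 and 0.01 TPM in NC and at 0, 0.03 and 0.02 TPM in KD, and no fold is given for values at the last printed decimal of the table. Without a limit on low values its adjusted p was 0.638 in limma.

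PTGER2 (ENSG00000125384, chromosome 14, 52314305 to 52328606, plus strand) encodes the receptor EP2, which couples to cyclic AMP. Its TPM were 3.07, 3.13 and 3.54 in NC and 2.83, 2.88 and 2.59 in KD. The KD libraries lay below the NC libraries without overlap, but the log2 fold change of -0.17 did not pass (95% interval from -0.39 to 0.04, limma adjusted p = 0.185). Counting PTGER2, 5 of the 7 tested genes had every KD library below every NC library and 0 had the opposite order. Of all tested genes 50.2% had groups that did not overlap, 32.8% with KD below and 17.4% with KD above NC.

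PTGER4 (ENSG00000171522, chromosome 5, 40679498 to 40693735, plus strand) encodes the receptor EP4, which couples to cyclic AMP as well. It read 1.68, 1.82 and 2.73 TPM in NC and 2.81, 3.80 and 2.66 TPM in KD, and NC replicate 3 fell among the KD values. The log2 fold change was 0.42 with a 95% interval from 0.00073 to 0.83 before adjustment (limma adjusted p = 0.108). Without NC replicate 3 it was 0.56 and passed (adjusted p = 0.0482), so that library decided whether it passed. PTGER4 lies within the span of TTC33 on the opposite strand, TTC33 read 2.64 to 4.61 TPM, and the pseudogene PTGER4P2 reached 1.15 TPM. The strand setting of the counting is not given in the sources used here, so reads of these genes may not be told apart.

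Together the EP2 and EP4 transcripts summed to 5.32 ± 0.826 TPM in NC and 5.86 ± 0.739 TPM in KD, with overlapping libraries. The part of PTGER4 in that sum went from 38.6% ± 4.37 to 52.5% ± 3.86, and the ratio of PTGER2 to PTGER4 from 1.61 ± 0.281 to 0.913 ± 0.135. The shares of the groups did not overlap.

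HPGD (ENSG00000164120, chromosome 4, 174490177 to 174523154, minus strand) encodes 15-hydroxyprostaglandin dehydrogenase, which inactivates PGE2. It read 0.09, 0.14 and 0.19 TPM in NC and 0.37, 0.87 and 0.36 TPM in KD. All KD libraries were above all NC libraries, with KD replicate 2 well above the other KD values. The means of 0.14 ± 0.05 and 0.533 ± 0.292 TPM differed 3.81-fold, and in a fit without any low-value limit the log2 fold change was 0.41 (SE 0.137, limma adjusted p = 0.128). None of the 14 alternatives that gave a value reached an adjusted p under 0.05 (0.0619 to 0.296). By the exact permutation test the two-sided p was 0.10, the smallest that 3 against 3 allows.

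**Figure D4:**
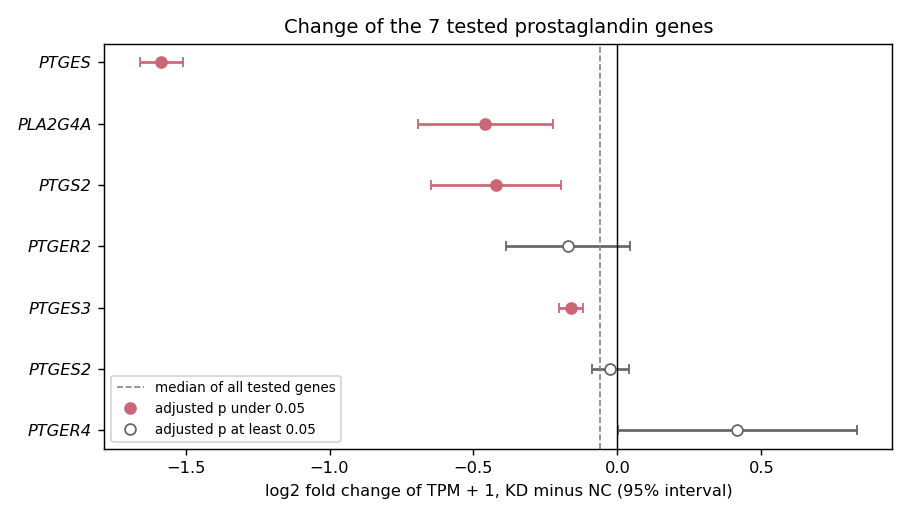
Log2 fold change of TPM + 1 (KD minus NC) of the 7 tested prostaglandin genes on the horizontal axis, with 95% intervals, filled points for an adjusted p under 0.05 and a dashed line at the median of all tested genes. PTGES stands apart at -1.58, PLA2G4A, PTGS2 and PTGES3 lie below 0 with their whole interval, and the interval of PTGER4 starts just above 0.

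By level, the order in NC was PTGES3, PTGES, PTGES2, PLA2G4A, PTGER2, PTGS2, PTGER4, HPGD, PTGS1 and PTGIS, where PTGER2 and PTGS2 overlapped and PTGS1 touched both HPGD and PTGIS. In KD the order was PTGES3, PTGES2, PTGES, PLA2G4A, PTGER4, PTGER2, PTGS2, HPGD, PTGS1 and PTGIS, where PLA2G4A, PTGER4 and PTGER2 overlapped, as did PTGS1 and PTGIS. TPM is corrected for length, so levels of different genes may be set side by side. The 3 PGE2 synthases were thus at 48.3 TPM or more in every library and every other gene of the list at 4.92 TPM or less.

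The rest of the prostanoid route was read from lists of 37 other genes, of which 22 were tested. Of these, 8 were lower, 3 were higher and 11 did not pass, or 50% past the threshold against 36.1% of all tested genes, with a median log2 fold change of -0.12. None of the 22 had an absolute log2 fold change of 1 or more. Among enzymes that release arachidonic acid or its precursors, 4 of 9 tested genes were lower and 1 was higher. MGLL, the monoacylglycerol lipase that yields arachidonic acid from an endocannabinoid, fell from 141.4 ± 2.13 to 86.2 ± 2.86 TPM (log2 fold change -0.71, adjusted p = 2.27e-05). PLAAT3, a phospholipase A of another family, rose from 12.5 ± 0.291 to 15.3 ± 0.912 TPM (0.27, adjusted p = 0.0111). The other 3 falls were in DAGLB, PLA2G15 and PNPLA8, with log2 fold changes from -0.39 to -0.29, and none of these 3 passed when low values were not limited (lowest adjusted p = 0.0521, for DAGLB).

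Of the synthases for other prostanoids 2 of 5 tested genes were lower. AKR1B1, an aldose reductase with PGF2alpha synthase activity, was far more abundant than any gene of the list and fell from 1385 ± 11.6 to 955.7 ± 10.9 TPM (log2 fold change -0.54, adjusted p = 4.37e-06). CBR1, a carbonyl reductase that acts on PGE2, fell from 251.2 ± 2.12 to 211.7 ± 5.76 TPM (-0.25, adjusted p = 0.00062). TBXAS1, the thromboxane synthase, read 25.3 ± 1.62 and 22.5 ± 3.38 TPM and did not pass (adjusted p = 0.278). The prostaglandin D2 synthases PTGDS and HPGDS stayed under 1 TPM.

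The list of prostanoid receptors held 8 other genes, among them PTGFRN, which is not itself a prostanoid receptor. Only TBXA2R and PTGFRN could be tested, and the EP1 and EP3 genes PTGER1 and PTGER3 read at most 0.21 TPM. TBXA2R, the thromboxane receptor, fell from 3.68 ± 0.573 to 2.50 ± 0.125 TPM (log2 fold change -0.41, adjusted p = 0.0295), and it no longer passed in 7 of 16 alternatives (highest adjusted p 0.0925), among them the fit with the replicate number as a block. PTGFRN, a regulator of the PGF2alpha receptor, read 71.4 ± 2.50 and 73.1 ± 3.44 TPM (adjusted p = 0.587). PTGIR, the prostacyclin receptor, lay under the testing limit and is named after its values were seen. It read 0.33, 0.39 and 0.39 TPM in NC and 0.03, 0.05 and 0.08 TPM in KD, and with no limit on low values its adjusted p was 0.00338 in limma.

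In breakdown and transport 1 of 6 tested genes was lower and 2 were higher. PTGR1, a reductase that acts after HPGD, fell from 112.4 ± 4.93 to 64.5 ± 4.08 TPM (log2 fold change -0.79, adjusted p = 0.000131), while PTGR2, another reductase of that step, rose from 3.70 ± 0.0961 to 5.33 ± 0.741 TPM (0.42, adjusted p = 0.0189, and 0.0562 with no limit on low values). ABCC4, a pump that exports PGE2, rose from 10.9 ± 0.488 to 15.8 ± 0.845 TPM (0.50, adjusted p = 0.00109). The importer SLCO2A1 was at or near 0. In the parallel lipoxygenase branch 15 of 17 genes were under the limit, and ALOX5 was at 0 in every library. LTA4H, the leukotriene A4 hydrolase, fell from 18.4 ± 0.302 to 15.2 ± 0.530 TPM (-0.26, adjusted p = 0.00446). ALOX5AP, under the limit and named after its values were seen, read 0.887 ± 0.134 TPM in NC and 0.317 ± 0.0902 in KD. With no limit on low values its adjusted p was 0.0218 in limma.

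**Figure D5:**
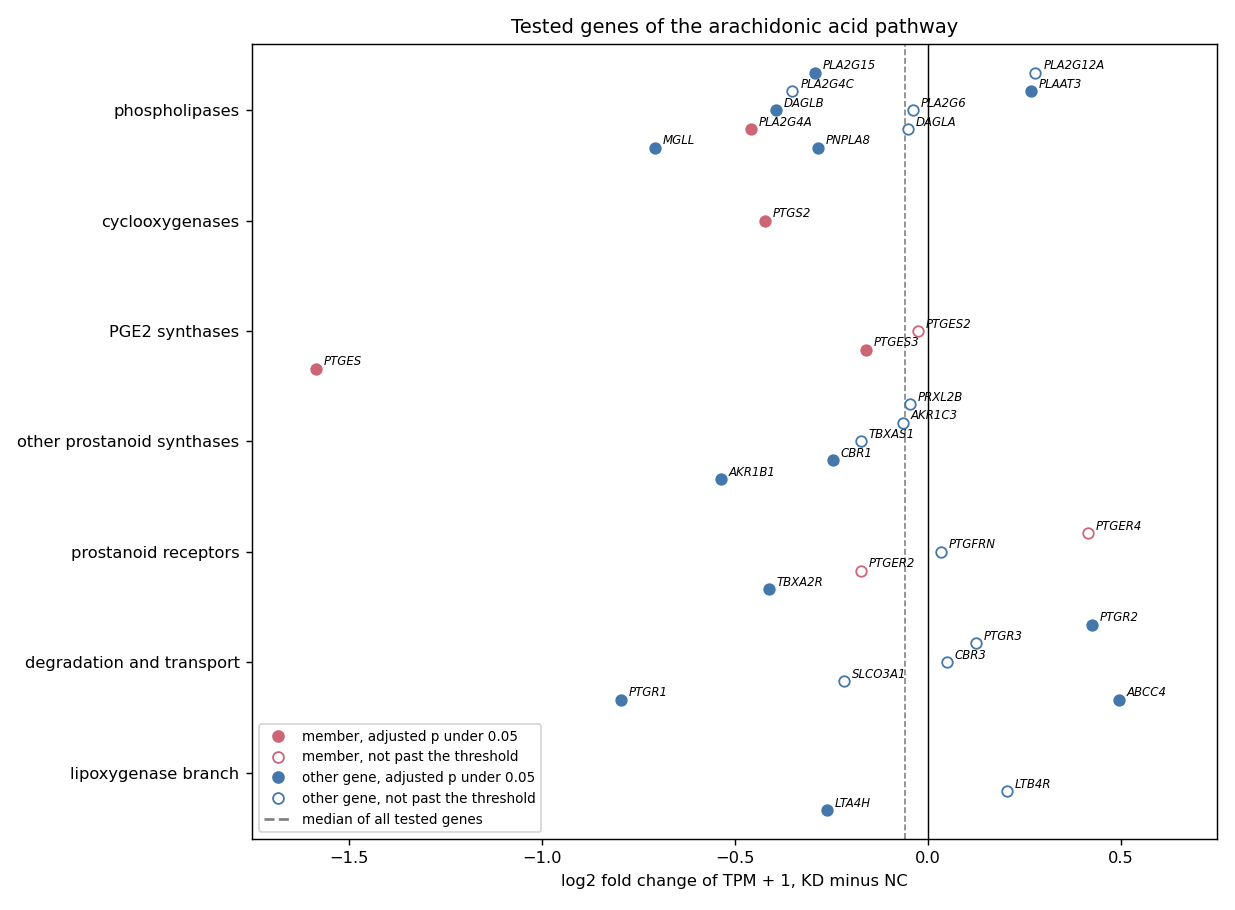
Log2 fold change of TPM + 1 (KD minus NC) of every tested gene of the arachidonic acid lists, 1 row a list, with the prostaglandin genes described above in red, other genes in blue, filled points for an adjusted p under 0.05 and a dashed line at the median of all tested genes. PTGES is the only gene beyond -1, and PTGR1 and MGLL are the next lowest at -0.79 and -0.71.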

How the data were processed

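RNA sequencing was read from 6 libraries of U87 cells, 3 labelled KD and 3 NC. TPM values were deposited by the authors with 2 decimals, 1 column per library. Per the labels the submitters' processing notes name fastp, RSEM and GRCh38.p13, and the aligner and annotation are not given in the sources used here. TPM keeps no read counts, so depth and counting error are unknown and no count test was run. Groups and replicate numbers came from the sample titles.

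Genes averaging 1 TPM or more over the libraries were fitted as log2(TPM + 1) in limma 3.58.1 (R 4.3.3, moderated with a mean-variance trend, all genes in 1 fit) with Benjamini-Hochberg adjustment. A fold change on this scale understates the change of low genes. Genes passed at an adjusted p under 0.05 and were called if their log2 change was also 1 or more in size. Single values under the limit were compared by an exact two-sided permutation test (scipy 1.17.1). Other pseudocounts, limits, scalings, variance models, gene types and left-out libraries were tried. The fit was tested on simulated data. The 10 genes and all lists were chosen with earlier results of these data known. From each list, the text names the largest passing change in each direction, every called gene and the most abundant gene. Others named by role or to complete a count were chosen after their values were seen. Symbols of the listed genes came from a separate list of gene names, gene types and coordinates from GENCODE release 29, and promoters from RefSeq (GRCh38.p14).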

Additional observations from a re-analysis of the deposited data

How the results depend on the processing

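Of the prostaglandin genes PTGES, PTGES3 and PLA2G4A kept their direction and passed wherever they were tested. The number past the threshold was 2 with a limit of 5 TPM, where PLA2G4A and PTGS2 were no longer tested, and both of the 2 were lower. Leaving out 1 library at a time gave 3 to 5 genes past the threshold, 3 to 4 of them lower and 0 to 1 higher (PTGER4, without NC replicate 3). The cause of the loss of PTGS2 without NC replicate 1 was not tested. PTGES2 turned to 0.0446 with median-of-ratios scaling and to 0.0263 with quantile normalization. PTGS1, with no limit on low values, had a log2 fold change of -0.0048. It turned to 0.027 without NC replicate 2, to 0.0017 without KD replicate 1 and to 0.023 without KD replicate 3. With a library left out its lowest value was -0.0391, without KD replicate 2, and over all 14 alternatives the lowest was -0.0458. The PTGES share of the synthases changed by -16.5 points (-16.7 to -16.3 with a library left out), and the CHRM3 difference of -0.027 TPM ranged from -0.065 to -0.0017. Over all genes 256 were called, against 399 with a pseudocount of 0.1, 145 with a limit of 5 TPM, 159 of protein-coding genes only, 90 at an absolute log2 fold change of 1.5 and 236 to 261 with a library left out. The genes past the adjusted p split into 3295 lower and 1660 higher, and into 2250 and 2306 with median-of-ratios scaling and 2229 and 2233 with quantile normalization, with the median of all genes at 0.00 in both. With a library left out 3850 to 4210 passed. Of the other listed genes 32 passed, 24 with no limit on low values, 21 without NC replicate 1 and up to 28 with another library left out. Over all tested genes 4955 of 13722 passed at the chosen settings. With no limit on low values 4033 of 30412 did, and without NC replicate 1 3850 of 13712. Correlations of deviations between libraries of the same number were small (-0.02, 0.03 and 0.03) and could not decide whether replicate numbers paired the libraries. NC replicates 2 and 3 correlated best with the KD library of their own number, and NC replicate 1 with KD replicate 3. With the replicate number as a block 4007 genes passed, 257 were called, and 4 prostaglandin genes passed, all lower, with PTGS2 at an adjusted p of 0.0483. TPM rounded to 2 decimals limits the 3 genes under 1 TPM most.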

Other observations

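EP2 and EP4 signal through cyclic AMP, and of 34 genes of that pathway 24 were tested. Of these 3 were lower and 4 higher in KD, or 29.2% past the threshold against 36.1% of all tested genes, and the median log2 fold change was 0.02. GNAS, the stimulatory G protein alpha subunit, rose from 756.8 ± 14.0 to 907.6 ± 17.9 TPM (0.26, limma adjusted p = 0.000277, n = 3 each). The adenylyl cyclase ADCY8 rose from 12.1 ± 0.342 to 14.4 ± 0.358 TPM (0.23, adjusted p = 0.00903) and the protein kinase A subunit PRKAR2A from 26.0 ± 0.411 to 29.8 ± 0.973 TPM (0.19, adjusted p = 0.00933). Among the falls were the protein kinase A catalytic subunit PRKACA (-0.12, adjusted p = 0.0298) and the phosphodiesterase PDE4B (-0.33, adjusted p = 0.0373), which with no limit on low values had an adjusted p of 0.0525 and 0.120. The cyclic AMP sensor RAPGEF3 (-0.75, adjusted p = 0.0281) and the phosphodiesterase PDE7A (0.32, adjusted p = 0.0251) no longer passed in 5 of 15 and 6 of 16 alternatives. A list for the immediate response to cyclic AMP had 9 tested genes, of which 2 were higher and 0 were lower, or 22.2% past the threshold. The list held CREM and CRTC2, also counted above, and CRTC2 is a coactivator rather than a gene known to be induced at once. DUSP1, a phosphatase of MAP kinases, rose from 130.3 ± 2.03 to 238.7 ± 2.72 TPM (0.87, adjusted p = 2.79e-06), and FOS from 49.2 ± 1.16 to 65.7 ± 3.60 TPM (0.41, adjusted p = 0.000857). NR4A1, NR4A2 and NR4A3 did not pass or were under 1 TPM.

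Among 10 tested genes for proteins that bind the PTGS2 messenger, 2 were lower and 3 higher, or 50% past the threshold. Of all tested genes 36.1% passed, 24.0% lower and 12.1% higher. ELAVL1, whose product HuR stabilises AU-rich messengers, fell from 75.9 ± 3.52 to 60.3 ± 2.64 TPM (-0.33, adjusted p = 0.00259), and ZFP36, whose product tristetraprolin promotes their decay, rose from 22.0 ± 1.01 to 28.8 ± 0.790 TPM (0.38, adjusted p = 0.00128). KHSRP, which also promotes decay, fell from 163.1 ± 7.21 to 138.0 ± 7.10 TPM (-0.24, adjusted p = 0.00948). RBM3 (0.18, adjusted p = 0.00223) and ZFP36L1 (0.11, adjusted p = 0.0345, and 0.0746 with no limit on low values) rose as well. HNRNPD, the most abundant, read 325.6 ± 3.21 and 334.1 ± 7.28 TPM and passed only with median-of-ratios scaling (adjusted p = 0.0129 against 0.233). Of 14 tested inducers and transcription factors of PTGS2, 3 were lower and 4 higher, also 50% past the threshold. The cytokine gene IL1B read 136.24, 137.41 and 140.14 TPM in NC and 14.29, 15.52 and 14.67 TPM in KD and was the only one called (-3.13, adjusted p = 1.43e-07). RELA fell from 81.2 ± 1.89 to 71.0 ± 2.95 TPM (-0.19, adjusted p = 0.00934) and USF1 from 33.6 ± 1.02 to 24.0 ± 2.91 TPM (-0.47, adjusted p = 0.0057). CEBPD rose from 8.06 ± 0.604 to 12.8 ± 1.80 TPM (0.60, adjusted p = 0.0053). ATF4, the most abundant of them, rose from 238.0 ± 0.682 to 258.2 ± 7.30 TPM (0.12, adjusted p = 0.0116), and did not pass without a mean-variance trend (adjusted p = 0.0556). The receptor gene IL1R1 rose from 18.1 ± 0.286 to 20.2 ± 0.843 TPM (0.15, adjusted p = 0.0383, and 0.0648 with no limit on low values). FOS, whose values are given above, was the other rise. FOS and CREB1 were also counted in the cyclic AMP lists. The neuronal marker list summed to 24.4 to 25.9 TPM in NC and 25.7 to 28.2 TPM in KD, where SNAP25 read 9.74 ± 0.841 and 13.8 ± 0.346 TPM and GAD1 15.2 ± 0.437 and 12.9 ± 1.24 TPM in NC and KD. Whether any of these changes bears on PTGES, PTGS2 or PLA2G4A was not tested.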
